A study of Mus musculus with 12 samples.

Results

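Spleens of mice carrying the V235fs form of human TREX1 were compared directly with spleens of mice carrying the D272fs form. The samples were chosen by their titles: 4 V235fs and 4 D272fs arrays, 8 of the 12 arrays of the series. The other 4 arrays are control spleens, which entered the estimate of the spread and are given beside the knock-ins for orientation. The most significant difference, at a probe with no gene name here (M300013841), was 3.10-fold lower in V235fs than in D272fs. It was 1 of 30 probes that differed among the 26502 tested.

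TREX1 is the main 3′ to 5′ DNA exonuclease of mammalian cells, held at the endoplasmic reticulum through its C-terminal tail. Its loss lets self DNA accumulate in the cytosol, where cGAS senses it and drives type I interferon through STING. Frameshifts in the C-terminal part leave the nuclease domain in place and remove the tail. V235fs causes retinal vasculopathy with cerebral leukodystrophy (RVCL), an inherited small-vessel disease, and is its most common mutation. D272fs was found in a patient with systemic lupus erythematosus (SLE), an autoimmune disease. The spleen is a lymphoid and blood-filtering organ in which B cells, T cells, macrophages and red blood cells are abundant.

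All mice were of C57BL6 background, and the labels call both knock-ins conditional alleles of human TREX1. The groups were Trex1 V235fs KI, Trex1 D272fs KI and control. The promoter, the Cre driver, the age of the mice and the genotype of the controls are not given in the sources used here. Whether replicates were separate mice is not stated in the labels. The p-values rest on a spread pooled over the 4 samples of each group, controls included, part or all of which could be technical. Among the controls that spread also holds differences between slides and scan days, which neither knock-in group has. On each array spleen cDNA carried Cy3 and cDNA of a common, universal reference carried Cy5, without a dye swap. Values are log2 ratios of spleen over reference unless a channel is named. Since whole spleen was used, fewer cells of a type and less RNA per cell cannot be told apart.

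The probes are designed oligonucleotides, of 60 bases where printed here and of 50 bases in 2.7% of those tested. The files do not pair their IDs with genes. Their sequences identify what was measured, so those that carry the comparisons are given here, 5′ to 3′, as the scanner files list them. The first pair was lower and the second pair higher in V235fs, with the smallest p-values in each direction.
M300013841: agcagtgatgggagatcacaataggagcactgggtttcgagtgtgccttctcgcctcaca
M200001601: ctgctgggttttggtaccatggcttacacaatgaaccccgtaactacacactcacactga
M400007795: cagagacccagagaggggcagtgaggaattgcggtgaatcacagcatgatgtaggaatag
M200008439: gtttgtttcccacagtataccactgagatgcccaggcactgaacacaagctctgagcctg
The next pair is shown for its difference in Cy3 when that channel was tested by itself, and the last pair for its difference in Cy5, which Cy3 shared.
M400000408: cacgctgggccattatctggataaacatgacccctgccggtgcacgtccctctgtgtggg
M400015708: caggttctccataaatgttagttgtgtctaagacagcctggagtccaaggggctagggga
M400007415: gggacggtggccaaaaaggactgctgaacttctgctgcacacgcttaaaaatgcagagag
M200006495: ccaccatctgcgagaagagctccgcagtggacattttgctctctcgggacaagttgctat

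The V235fs arrays shared 1 slide and the D272fs arrays a different one, with the same 4 array positions used on both and 1 scan day. Slide and genotype therefore cannot be told apart in any difference below. On the knock-in arrays 69.8% to 73.6% of mouse probes had Cy3 well above background, with median signals between 94.3 and 113 and no saturated spot. The controls lay on 3 other slides and were scanned on 2 other days. The number of arrays limits the precision.

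The arrays did not separate cleanly by genotype. V235fs replicate 1 correlated most closely with D272fs replicate 3 (Pearson r = 0.982 across probes), above its correlations of 0.953 to 0.968 with the other V235fs arrays. The other 3 V235fs arrays correlated with each other at 0.975 to 0.985. D272fs replicates 1 and 2 correlated at 0.980 and replicates 3 and 4 at 0.975, while correlations between these pairs were between 0.954 and 0.961. In the reference channel, by contrast, every correlation within a slide was between 0.997 and 0.999, and every one between the slides was between 0.992 and 0.995. The first principal component of the reference channel, with 64.0% of its variance, separated the 2 slides. That of the spleen channel, with 44.9%, did so too. There V235fs replicate 1 scored 0.108, the other V235fs arrays 0.291 to 0.474, and the D272fs arrays -0.479 to -0.215. The first of the log ratios held 38.9% and placed V235fs replicate 1 on the side of the D272fs arrays. These correlations are over probes, which are not independent replicates.

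**Figure D1:**
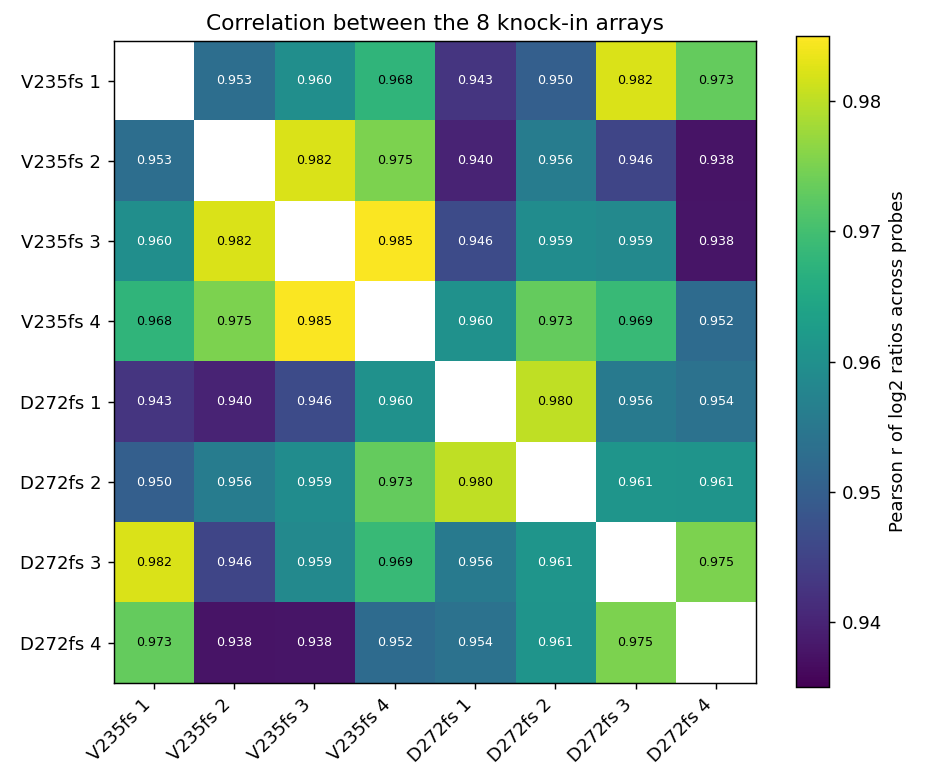
Pearson correlation of log2 ratios (spleen over reference) across probes for each pair of the 8 knock-in arrays, with colour and printed value giving r. V235fs replicate 1 and D272fs replicate 3 correlate at 0.982, which is higher than either array's correlation with any array of its own group.

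Of 26502 probes tested, 30 differed between V235fs and D272fs at an adjusted p under 0.05 (0.113%). Of these, 7 were higher in V235fs (0.0264% of the probes tested) and 23 were lower (0.0868%). Without adjustment, 3860 probes (14.6%) had a p under 0.05. The values of the 4 V235fs arrays did not overlap those of the 4 D272fs arrays at any of the 30 probes, against 11.5% of all tested probes. This largely follows from choosing the 30 probes by their p on these same arrays, and is no added support. The 11 called probes that differed at least 2-fold were all lower in V235fs. Other probes differed at least 2-fold without a call, in both directions, such as M400015708 (1.14) and M400010651 (-1.17). Their share over all tested probes was not counted. Among the called probes the median difference was 0.64 for the higher ones (0.50 to 0.80) and -0.91 for the lower ones (-2.47 to -0.42). The median over all tested probes was 0.01. The called probes were brighter than the tested set, with a median log2 Cy3 of 9.51 against 8.05.

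The count of 30 depended on single arrays. It was 302 without V235fs replicate 1, 417 without D272fs replicate 3 and 482 without both, and all 30 probes were kept in each of these fits. It fell to between 2 and 5 without any one of the other 6 knock-in arrays, was 253 without control replicate 1 and was 5 without control replicate 2. With slide as a random block, 1 call remained, M300013841. That fit cannot separate slide from genotype, because each knock-in group lay on its own slide. Each of the 30 probes kept its direction in every alternative in which it was tested.

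**Figure D2:**
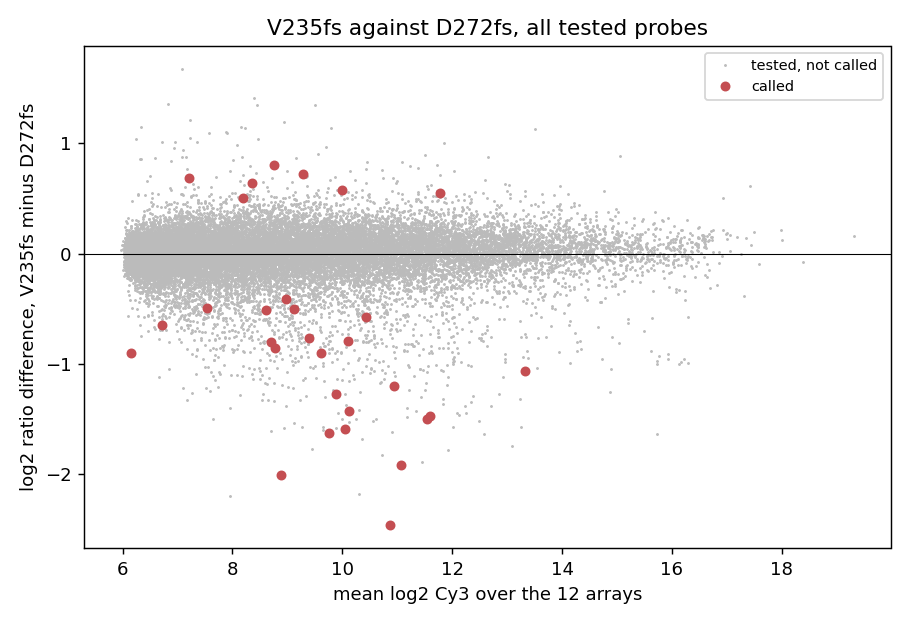
Difference of the log2 ratio (V235fs minus D272fs, vertical axis) against the mean log2 Cy3 signal over the 12 arrays (horizontal axis) for the 26502 tested probes, with the 30 called probes as large points. The called probes lower in V235fs reach -2.47, and the called probes higher in V235fs stay between 0.50 and 0.80.

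M300013841 gave log2 ratios of -0.56, -0.61, -0.47 and -0.59 in V235fs replicates 1 to 4 and 0.85, 0.94, 1.08 and 1.44 in D272fs replicates 1 to 4. All 4 V235fs arrays were low and close together, and the D272fs arrays were high and spread more widely. The difference was -1.63 ± 0.11 (SE, n = 4 per group; adjusted p = 8.45e-05, limma). The control arrays were between -0.53 and -0.37, so D272fs was the group that stood apart from them. The difference lay in the spleen channel, at -1.32 on the log2 Cy3 scale, while the reference channel differed by 0.31 in the other direction (adjusted p = 0.055). This probe was called in 28 of 28 alternatives, with differences from -1.72 to -1.49.

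M200001601 gave log2 ratios of 0.13, 0.11, 0.03 and 0.06 in V235fs and 0.88, 1.08, 1.14 and 0.85 in D272fs. The groups did not overlap, and the controls (-0.01 to 0.15) lay with V235fs. In Cy3 it stood well above background on 4 of 4 D272fs arrays and on 0 of 4 V235fs arrays, and its reference signal did so on 0 of the 8 arrays. Its size in V235fs is therefore only bounded: the spleen signal was at least 1.57-fold higher in D272fs, computed from the lowest signal that counted as well above background. The fitted difference of -0.91 (adjusted p = 6.54e-04, limma) rests on background-level values and ran from -3.33 to -0.54 over the alternatives. The call was lost under 4 of 27 of them, with adjusted p up to 0.256.

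M400007795 had log2 ratios of 2.35, 2.31, 2.24 and 2.23 in V235fs and 1.67, 1.58, 1.82 and 1.50 in D272fs. The controls (1.61 to 1.72) lay within the range of D272fs, so V235fs was the group that stood apart. The difference was 0.64 ± 0.07 (SE, n = 4 per group; adjusted p = 0.0136, limma). The call was lost under 13 of 28 alternatives, among them leaving out V235fs replicate 2 (adjusted p = 0.0921), 3 (0.0503) or 4 (0.0592) or D272fs replicate 2 (0.0877) or 4 (0.0540). Adjusted p ran from 0.00182 to 1 over the alternatives.

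M200008439 had log2 ratios of 1.63, 1.80, 1.78 and 1.73 in V235fs and 1.060, 0.998, 1.005 and 0.994 in D272fs. V235fs was again high, and the controls (0.73 to 1.17) spanned the D272fs values. The difference was 0.72 ± 0.09 (SE, n = 4 per group; adjusted p = 0.0141, limma). The spleen channel differed by 1.12 and the reference channel, in the same direction, by 0.40 (adjusted p = 0.024). The call was lost under 10 of 28 alternatives, among them leaving out V235fs replicate 2 (adjusted p = 0.0946), 3 (0.0802) or 4 (0.0834) or D272fs replicate 2 (0.0877) or 4 (0.0874). Adjusted p ran from 6.57e-04 to 0.900 over the alternatives.

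**Figure D3:**
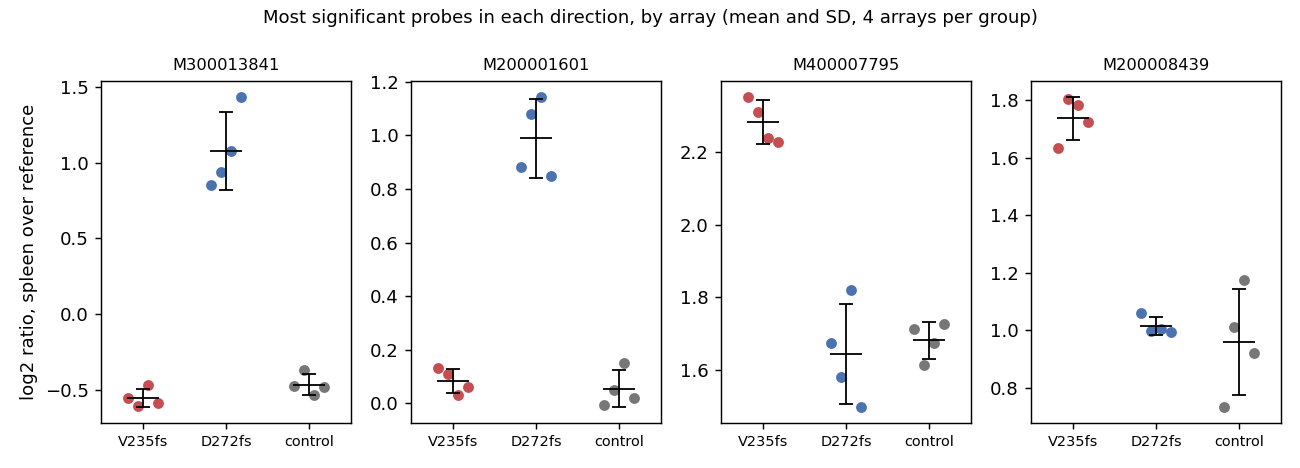
Log2 ratio of spleen over reference on each array for the pair of probes with the smallest p in each direction, with separate vertical scales; points are arrays in replicate order, and bars give the group mean and SD of 4 arrays. D272fs lies above V235fs and control at M300013841 and M200001601, and V235fs lies above D272fs and control at M400007795 and M200008439.

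Over the 30 called probes the V235fs mean was farther from the control mean than the D272fs mean was in 23, namely all 7 probes higher in V235fs and 16 of the 23 lower ones. The control mean lay between the knock-in means in 24 of the 30. The controls were hybridised on other slides and days, so these positions are descriptions. The same counts were not taken over all tested probes, so they are not shown to be particular to the called ones. Across all tested probes control replicates 2, 3 and 4 correlated more closely on average with the D272fs arrays, and control replicate 1 with the V235fs arrays. Between controls of different scan days the difference at the 30 probes reached 1.50 in size, at M400000408 (median 0.15, against 0.16 over all tested probes). M400000408 was not alone. Control differences of -1.22, -0.98, -0.86, -0.74 and -0.72 stood at probes with knock-in differences of -2.01, -1.92, -1.48, -1.43 and -1.59. At the remaining called probes the control difference was at most 0.39 in size, there with the opposite sign to a knock-in difference of -1.27. The controls were part of the fit that chose the 30 probes, so this is no independent check of them. No called probe had a gene name, and 3 of them shared a stretch of 20 or more bases with another mouse probe on the array.

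The spleen channel alone differed much more often than the ratio. In Cy3, 2753 probes were called (10.4% of those tested), 1479 higher and 1274 lower in V235fs, with 315 at least 2-fold. In Cy5, which holds the same kind of reference RNA on both slides, 4787 probes were called (18.1%), 3115 higher and 1672 lower, with 120 at least 2-fold. The reference does not depend on the genotype of the mice, but the normalisation of each channel used both channels. How much of these calls came from the slides was not tested. Of the probes called in Cy3, 55.8% were also called in Cy5, and of those called in Cy5, 32.1% were also called in Cy3; the direction was shared by 1527 of these 1536 probes. Across tested probes the differences of both channels correlated at r = 0.71, a description over probes that share slides and spots. The root mean square difference was 0.32 in Cy3, 0.23 in Cy5 and 0.22 in the ratio. The root mean square SD within a group was 0.22 in Cy5 for the controls, against 0.09 for V235fs and 0.11 for D272fs. In the ratio it was 0.23 for the controls, 0.19 for V235fs and 0.20 for D272fs. The pooled spread behind these counts includes the controls.

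Leaving out single arrays moved the Cy3 count by over 1.5 times for 7 arrays: it was 520, 161 and 976 without V235fs replicates 2, 3 and 4, 1157, 1634 and 403 without D272fs replicates 1, 2 and 4, and 4410 without control replicate 1. The Cy5 count was between 1905 and 3115 without any one knock-in array, and it was 7647 and 7523 without control replicates 1 and 4.

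M400007415 had the largest reference difference among probes called in Cy5 without overlap. Its log2 Cy5 was 7.24, 7.58, 7.55 and 7.63 on the V235fs arrays and 9.70, 9.77, 9.68 and 9.90 on the D272fs arrays, a difference of -2.26 ± 0.41 (SE, n = 4 per group; adjusted p = 0.00615, limma). Its spleen signal differed by -2.21, nearly the same amount, and the ratio by 0.05 ± 0.11 (adjusted p = 0.914, limma). Both dyes were thus dimmer at this probe on the V235fs slide. The control arrays, on 3 further slides, spread from 8.10 to 10.86 in Cy5.

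M200006495 moved the other way: log2 Cy5 was 8.91, 8.90, 8.98 and 8.81 on the V235fs arrays and 8.30, 8.29, 8.21 and 8.09 on the D272fs arrays. Cy5 differed by 0.68 and Cy3 by 0.68, and the ratio differed by 0.01. M300007492 behaved alike, with 0.66 in Cy5, 0.61 in Cy3 and -0.05 ± 0.11 in the ratio (SE, adjusted p = 0.914). M400004139 did not: the V235fs slide differed by -2.26 in the reference channel and by -0.89 in the spleen channel. Its ratio was thus higher in V235fs by 1.36 ± 0.25, which missed the threshold (adjusted p = 0.0613, limma). The ratio and the spleen channel thus had opposite signs, but Cy3 was well above background on only 2 of 4 V235fs arrays, so the sizes of both differences are uncertain.

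M400000408 showed the largest spleen difference among probes called in Cy3 without overlap, -3.15 on the log2 Cy3 scale. Its log2 Cy3 was 9.90, 9.03, 8.34 and 9.09 in V235fs and 12.48, 11.61, 11.96 and 12.92 in D272fs. The reference differed by -0.69 (adjusted p = 0.0202), and the ratio by -2.47 ± 0.38 (adjusted p = 0.0423, limma), the largest among the 30 called probes. Its control ratios were 2.82, 4.40, 4.47 and 3.06, low in replicates 1 and 4 of one scan day and high in replicates 2 and 3 of the other. M400000408 shares 20 or more bases with 1 other mouse probe, so the measured transcript is uncertain.

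M400015708 showed the opposite direction with little change of the reference. Its log2 Cy3 was 10.63, 10.38, 10.52 and 10.74 in V235fs and 9.05, 9.37, 9.60 and 9.30 in D272fs, without overlap. Cy3 differed by 1.24 ± 0.19 (adjusted p = 0.0118) and Cy5 by 0.10 (adjusted p = 0.408). The ratio differed by 1.14 ± 0.21, which missed the threshold (adjusted p = 0.0613, limma). M200000108 differed by 1.54 in Cy3 (adjusted p = 0.0339), a call that was lost without any one of V235fs replicates 2 (0.0608), 3 (0.103) and 4 (0.0838) and D272fs replicates 1 (0.0764), 3 (0.0570) and 4 (0.0791). M400010651 differed by -2.91 in Cy3 and by -1.74 in Cy5, and its ratio difference of -1.17 ± 0.43 was not called (adjusted p = 0.212). Without V235fs replicate 3 its Cy3 call was lost (adjusted p = 0.0524).

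Of the 30 probes called in the ratio, 29 had the same direction in Cy3, 28 were also called in Cy3 alone and 12 were also called in Cy5 alone. The median size of the difference at these probes was 0.89 in Cy3 and 0.23 in Cy5, against 0.16 and 0.11 over all tested probes. In 2 of the 30 the reference differed by more than the spleen channel. The ratio difference is the Cy3 difference minus the Cy5 difference, and the 30 probes were chosen by it on these same arrays. These counts and sizes therefore follow in part from that choice and are no added support. The part of the slide in these 30 differences was not tested and cannot be, since slide and genotype coincide in the knock-ins.

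**Figure D4:**
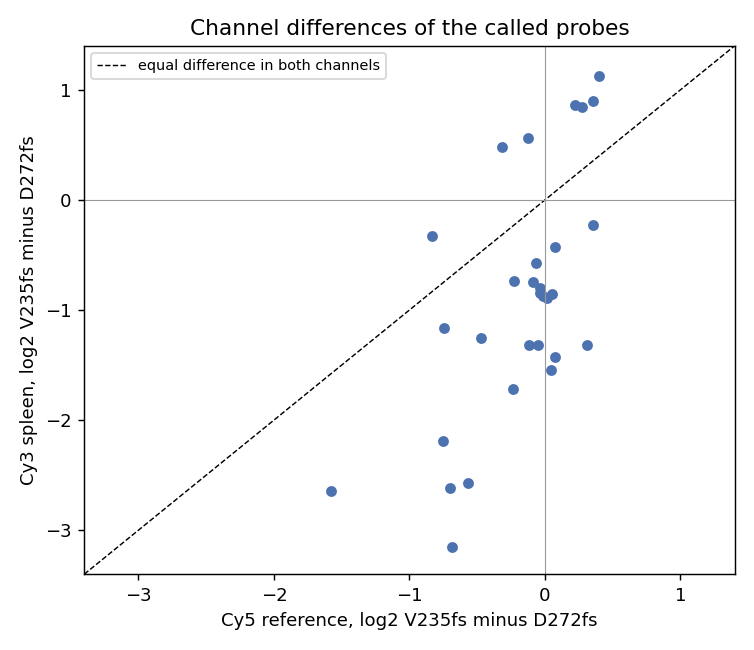
Difference between V235fs and D272fs in the spleen channel (log2 Cy3, vertical axis) against that in the reference channel (log2 Cy5, horizontal axis) for the 30 called probes; on the dashed line both channels differ equally. At 28 of the 30 probes the spleen channel differs by more than the reference channel, which follows in part from choosing the probes by their ratio.

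A gene name could be given to 84 tested probes (79 genes), those with at least 30 bases identical to the first 50 bases after a RefSeq gene start (GRCm38.p6). None was called by limma, against 0.113% of all tested probes, and 12 of the 84 had an unadjusted p under 0.05, against 14.6% of all tested. Of these 12, 8 were lower in V235fs. Their median difference was 0.01, their range -0.89 to 0.31, and 82 of the 84 differed by less than 0.5. The groups did not overlap at 9 of the 84, 7 lower and 2 higher in V235fs. Over all tested probes 11.5% did not overlap, 5.7% lower and 5.8% higher in V235fs. With so few named probes the split by direction is only a description. These names cover a small and unplanned sample of the spleen transcriptome. Among the genes described below, the matches of H3c4, Sod1 and Olfr813 did not lie wholly within any annotated gene, so their targets are uncertain.

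Gprc5d, an orphan receptor known from plasma cells and hair follicles, had the largest difference (probe match chr6:135118234-135118273, minus strand). Its log2 ratios were 0.88, 0.69, 0.30 and 0.64 in V235fs and 1.57, 1.24, 1.27 and 2.01 in D272fs. The groups did not overlap, and the difference was -0.89 ± 0.24 (SE, adjusted p = 0.108, limma), which did not pass. With array weights it did (adjusted p = 0.0142, limma). That fit called 2053 of 26502 probes, against 30 without weights, so a pass under it is no separate support for a gene. Its weights, estimated from these same arrays, ran from 0.40 (control replicate 4) to 2.62 (V235fs replicate 3), with 0.60 for V235fs replicate 1. Control arrays ranged from 0.82 to 1.86, which covers the D272fs values other than that of replicate 4 and, of the V235fs arrays, replicate 1. The reference differed by 0.08.

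Mucl2, a mucin-like secreted protein (chr15:103899263-103899298, minus strand), had log2 ratios of 0.44, 0.31, 0.40 and 0.40 in V235fs and 0.94, 0.67, 0.61 and 1.16 in D272fs. The difference was -0.46 ± 0.11 (SE; adjusted p = 0.0922, limma), with no difference seen in the reference (0.00). It passed without D272fs replicate 3 (adjusted p = 0.0449) and with array weights (0.0193). A probe within the span of Atp8a1, which encodes a phospholipid flippase, matched the start of the predicted gene Gm46914 and differed by -0.81 ± 0.22 (SE; adjusted p = 0.112); which of the 2 genes it measured is uncertain. That probe passed with array weights (adjusted p = 0.0174).

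Slc29a1, the equilibrative nucleoside transporter ENT1 (chr17:45595482-45595541, minus strand), had log2 ratios of -0.62, -0.76, -0.73 and -0.71 in V235fs and -0.52, -0.58, -0.46 and -0.34 in D272fs. The difference was -0.23 ± 0.07 (SE; adjusted p = 0.141, limma; 0.0359 with array weights). Both knock-in groups lay below the controls (-0.07 to 0.10), which were on other slides and days. In Cy3 alone the knock-ins differed by -0.07 and in the reference by 0.16, so most of the ratio difference lay in the reference.

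Ercc8, the substrate receptor CSA of transcription-coupled nucleotide excision repair (chr13:108158757-108158787, plus strand), had log2 ratios of -0.51, -0.52, -0.44 and -0.50 in V235fs and -0.71, -0.69, -0.71 and -0.85 in D272fs. The difference was 0.25 ± 0.08 (SE; adjusted p = 0.142, limma; 0.0266 with array weights). It was -0.01 in Cy3 and -0.26 in Cy5 (adjusted p = 0.0373), so the ratio differed through the reference channel. The predicted gene Gm29758 differed by 0.31 ± 0.13 (adjusted p = 0.308; 0.0465 with array weights). The olfactory receptor genes Olfr390, Olfr1155 and Olfr813 differed by -0.11, -0.22 and -0.10, with limma adjusted p of 0.430, 0.436 and 0.455. The Olfr1155 probe matched over 36 bases. It was bright in the reference (log2 Cy5 of 12.21 in V235fs, 12.94 in D272fs), and its target is uncertain.

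Psmb9, an interferon-induced subunit of the immunoproteasome (chr17:34187281-34187315, minus strand), was the only 1 of 46 interferon-stimulated genes on the list with a named probe. Its log2 ratios were 2.07, 2.06, 2.32 and 1.99 in V235fs and 2.05, 1.88, 2.07 and 2.23 in D272fs, and the groups overlapped. The difference was 0.06 (95% interval -0.23 to 0.35; adjusted p = 0.913, limma), and the controls ranged from 1.90 to 2.52. One gene does not represent the interferon response, which was not measured here by name. Of 63 replication-dependent histone genes, 2 had a named probe, H4c3 with -0.21 ± 0.18 (adjusted p = 0.683) and H3c4 with 0.05 ± 0.08 (adjusted p = 0.881). No marker on the lists of spleen cell types, no nucleic acid sensor and no lysosome or glycosylation gene on the lists had one, so the labelled tissue was not checked against markers.

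Dnase1l1, a member of the DNase I family (chrX:74281577-74281612, minus strand), differed by -0.22 ± 0.09 (SE; adjusted p = 0.237, limma; 0.0499 with array weights). The mitochondrial ATP synthase subunit genes Atp5g1 and Atp5o differed by -0.34 ± 0.15 (adjusted p = 0.317) and -0.28 ± 0.24 (adjusted p = 0.679). At Atp5o, V235fs replicate 1 (-1.14) and D272fs replicates 3 (-1.25) and 4 (-1.27) were high, and the other 5 arrays lay between -2.28 and -1.95. This is the grouping of arrays seen in the correlations, across genotypes. Gstp1, a glutathione transferase, differed by -0.16 (95% interval -0.45 to 0.13), and Sod1, the cytosolic superoxide dismutase, by -0.19 (-0.68 to 0.30).

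H2-Q4, a class I histocompatibility gene, differed by 0.07 (95% interval -0.27 to 0.42), and near-identical copies of such genes leave its probe's target uncertain. Birc2, an inhibitor of apoptosis, differed by 0.07 (-0.09 to 0.24), and Cbx3, a heterochromatin protein, by 0.15 (-0.22 to 0.52). Ear2, an eosinophil-associated ribonuclease, differed by -0.10 (-0.56 to 0.36). Adjusted p was at least 0.655 for Gstp1, Sod1, H2-Q4, Birc2, Cbx3 and Ear2. These intervals leave room for changes in either direction.

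**Figure D5:**
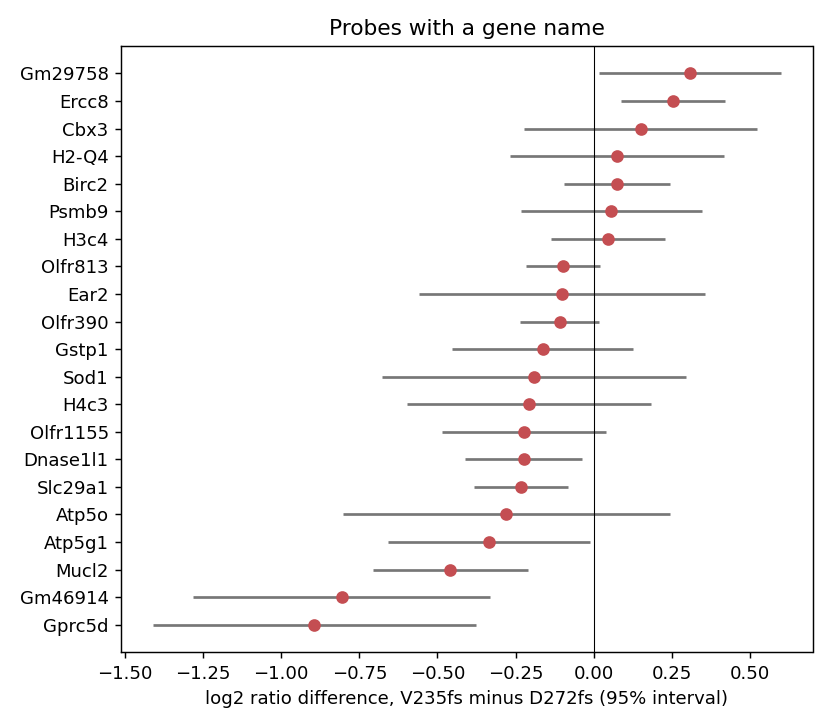
Difference of the log2 ratio (V235fs minus D272fs, horizontal axis) with its 95% interval for the gene-named probes described in the text. No probe passed the adjusted threshold in this fit; Gprc5d lies lowest at -0.89 and Gm29758 highest at 0.31.

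The level of TREX1 itself was not measured by a named probe. M300004718 is identical over 60 bases to sequence just upstream of the mouse Trex1 start (chr9:109059793-109059852, minus strand, GRCm38.p6), 70 bases outside Trex1 and within the span of its neighbour Atrip, which encodes the partner of the ATR kinase. The annotated Atrip-trex1 locus also spans it. The probe therefore does not measure mouse Trex1 on its own, and it does not check the human knock-in allele. Its log2 ratios were 0.08, 0.30, 0.30 and 0.04 in V235fs and 0.07, 0.05, 0.10 and -0.06 in D272fs. The groups overlapped, with a difference of 0.14 ± 0.08 (SE; adjusted p = 0.482, limma).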

How the data were processed

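Per the file headers, the deposited scanner files hold mean intensity values of Cy3 (spleen) and Cy5 (reference) per spot, read with Agilent Feature Extraction 11.5.1.1. The authors' value table holds rounded log10 ratios equal to the deposited scanner log10 ratios within 0.005; its column medians lay between 0 and 0.0035. The file of D272fs replicate 4 holds rounded values.

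With limma 3.58.1 (R 4.3.3), each channel was background-corrected by normexp fitted on 153 negative control spots (offset 50) and each array normalised by loess. Outlier spots (114) were set to missing, and 35957 spots of 35852 mouse probes were averaged per probe. Probes well above background in Cy3 on at least 4 of 12 arrays were tested (26502). One mean per group was fitted over 12 arrays with empirical Bayes moderation; calls had a Benjamini-Hochberg adjusted p under 0.05. Channels alone were normalised by loess and Aquantile. The test was tried on simulated data.

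Members and gene lists were chosen with earlier results of these data known. Naming probes through proteins was not possible, so a match of 30 bases in RefSeq start windows was used (160 of 35852 probes, 138 of them of 1 gene). That rule, the limit to 2 unnamed probes per direction (smallest p for the ratio; largest change without overlap for a channel alone) and the genes Dnase1l1, Atp5g1, Atp5o, Gstp1, Sod1, Ear2, H2-Q4, Birc2 and Cbx3 were chosen after values were seen. The other named genes had the smallest p without overlap or stood on a list.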

Additional observations from a re-analysis of the deposited data

Results flagged for a closer look

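In 70 sets of 4 arrays or correlations, 5 had a value far from the other 3 of its group, as chance gives in about 1 of 20 such sets. The probe matching Gm46914 had a log2 ratio of 3.20 on D272fs replicate 3, against 3.68 to 3.71 on the others. The probe of Olfr1155 had -4.53 on V235fs replicate 1, against -4.68 to -4.67. The probe of Ercc8 had -0.85 on D272fs replicate 4, against -0.72 to -0.69. M400010651 had a log2 Cy3 of 11.34 on V235fs replicate 4, against 9.58 to 9.64. D272fs replicate 2 had a mean correlation with its own group of 0.967, against 0.963 to 0.964.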

How the results depend on the processing

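The 30 calls in the log ratio became 1 with local background, 17 with an offset of 0, 12 with the negative control mean subtracted, 11 with Agilent's log ratios and 11 with the authors' value table. Median centring gave 1, no filter 7, slide as a random block 1 and array weights 2053; the cause was not tested. The 8 knock-in arrays alone gave 292 calls, 130 higher and 162 lower. With the replicate block on these 8 arrays there were 347, 83 higher and 264 lower, and 22 of the 30 were kept; the Gm46914 probe was then called too (adjusted p = 0.0327). The deviations of same-numbered arrays, which also shared a slide position, correlated at -0.33, 0.31, -0.02 and -0.31. A pairing by number was thus not seen, but so few correlations cannot exclude it. Leaving out single arrays gave 2 to 417 calls, and leaving out V235fs replicate 1 and D272fs replicate 3, chosen after the data were seen, gave 482. Splits of higher and lower calls under other scalings were 0 and 1 (median centring) and 9 and 22 (scale). The Cy3 count became 4754 on the 8 knock-in arrays and 161 to 4410 without single arrays; the Cy5 count became 12116 on the 8 arrays, 12489 with the replicate block and 1905 to 7647 without single arrays. Signs turned, without a call, for 5 genes. Without single arrays, Psmb9 ran from -0.0127 to 0.115 (-0.00279 without D272fs replicate 2), H3c4 from -0.0111 to 0.0868, H2-Q4 from -0.0748 to 0.205 (-0.0294 without D272fs replicate 3) and Ear2 from -0.226 to 0.0952. H4c3 was 0.0214 with local background. Ear2 was 0.145 with local background, 0.0169 with an offset of 0, 0.0352 with the negative control mean, 0.0511 with Agilent's log ratios and 0.0615 with the authors' table. Dim probes limit what can be seen: M200001601 has only a bound in V235fs.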
